A study of Mus musculus with 10 samples.

Results

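The subject is a set of 9 genes that encode surface or secreted ligands of immune checkpoint receptors: Cd80, Cd86, Icosl, Cd276, Vtcn1, Pvr, Cd47, Cd200 and Lgals9. They were chosen by symbol as checkpoint ligands other than the 2 ligands of PD-1, and all 9 were among the 21969 gene rows of the expression matrix. The series followed spermatogonial stem cells, which maintain sperm production in the testis, of DBA/2 mice as they were brought into culture. Each of 5 groups held 2 RNA-seq libraries, 10 in all. Week 0 was adult DBA/2 testis cells picked with magnetic beads carrying an antibody to the surface protein CD9. Weeks 1, 2 and 3 were such cells kept in culture for that long. GS cells are spermatogonial stem cells already established as a long-term culture, also DBA/2. The labels give the same medium for all cultured cells, an Iscove-type medium with human FGF2, rat GDNF and fetal bovine serum, and name no gene deletion or drug. They do not say whether feeder cells were used, how many animals or cultures stood behind a library, or the age of the animals beyond adult. A p-value here is thus set against the spread of library pairs that may be technical replicates.

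Checkpoint ligands tune what T cells, natural killer cells and macrophages do on meeting a cell. CD80 and CD86 are B7 proteins that bind the activating receptor CD28 and the inhibitory receptor CTLA4, and ICOSL binds ICOS. CD276 (B7-H3) and VTCN1 (B7-H4) are B7 relatives that can restrain T cells and whose receptors are less well established. PVR (CD155), an adhesion protein of the nectin family, binds the inhibitory receptors TIGIT and CD96 and the activating receptor CD226. CD47 binds SIRPA on phagocytes and restrains engulfment, CD200 restrains myeloid cells through its receptor CD200R1, and LGALS9 (galectin-9) is a sugar-binding protein that binds TIM-3, the product of Havcr2. The testis is known as a site where immune responses are restrained.

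The 9 genes fell into 4 patterns. Cd80, Pvr, Cd47 and Lgals9 had their highest level at week 1 of culture and fell from week 1 to week 2. Cd276 rose on entry into culture and stayed high, with a mean in GS cells 22.0 times that of week 0. Cd200, Icosl and Vtcn1 were high at week 0 and lower in GS cells. Cd86 was near or below 2 FPKM in every library and was not called in any comparison. By limma's F test 8 of the 9 genes, all but Cd86, differed between some of the 5 groups, against 93.8% of all genes tested, so a change as such did not set them apart. The 8 include Vtcn1, which passed the filter on low values only through week 0, where it was high, so its call carries no weight.

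**Figure D1:**
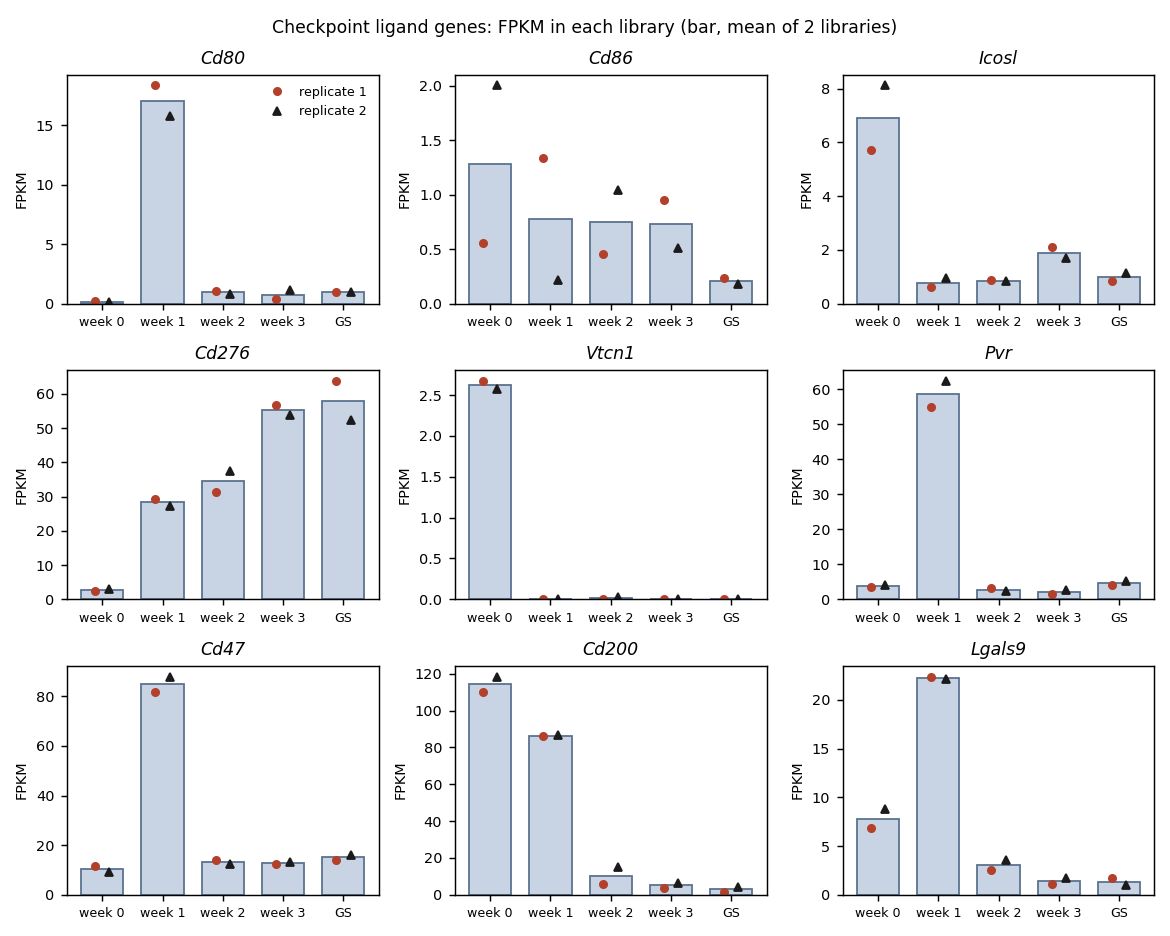
FPKM (vertical axis, a separate linear scale in each panel) of the 9 ligand genes in the 5 groups (horizontal axis). Bars are group means and points are the 2 libraries of a group. Cd80, Pvr, Cd47 and Lgals9 are highest at week 1, Cd276 is highest in week 3 and GS cells, and Cd200, Icosl and Vtcn1 are highest at week 0.

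Values are the authors' FPKM, fragments counted per unit of transcript length and of library size, so levels of different genes can be set side by side. Differences between groups come from limma on log2(FPKM + 1). A gene is called, and is said to rise or fall, at a Benjamini-Hochberg adjusted p under 0.05 over all 15671 genes tested. The added 1 makes a log2 difference of a low gene smaller than its ratio of means. The steps of the FPKM values gave a depth of 10.34 to 21.05 M reads (M, 1e6) per library. Replicates correlated at r = 0.987 to 0.993 across genes, which are not independent of each other. Markers of undifferentiated spermatogonia were present in all groups, with 13 of 14 at FPKM 1 or more at week 0 and all 14 from week 1 on, and their summed FPKM went from 409 to 423 at week 0 up to 1404 to 1481 in GS cells. Week 0 also held RNA of other cells. The 8 spermatid markers summed to 23610 and 25350 FPKM there against 160 to 173 at week 1, and the 7 Leydig cell markers to 1538 and 1786 against 74.6 to 81.5. In bulk RNA, fewer cells of a type and less RNA per cell cannot be told apart. The direction of calls over all genes depended on scaling. Of the genes called between weeks 0 and 1, 45.2% were higher at week 1 on the deposited scale. The share was 59.8% after quantile normalization, 51.3% at a common FPKM sum and 56.2% at a common upper quartile. For GS cells against week 0 the share called higher was 43.0% as deposited, 61.1% after quantile normalization, 54.1% at a common FPKM sum and 52.7% at a common upper quartile. From week 1 to week 2 it was 50.7% as deposited, 61.8% after quantile normalization, 66.2% at a common sum and 49.5% at a common upper quartile.

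Week 1 was compared with week 0 to see what entering culture did to the ligand genes, and week 2 with week 1 to see what lasted. From week 0 to week 1, 5 of the 9 rose (Cd80, Cd276, Pvr, Cd47, Lgals9) and 2 fell (Icosl, Vtcn1). Vtcn1 was tested only because it passed the filter at week 0, where it was high, so its call carries no weight. Of the other 8 genes 5 rose and 1 fell. Of all genes tested 80.3% were called in this comparison, 36.3% higher and 44% lower. The median log2 difference was 1.41 over the 9 genes and -0.14 over all genes. From week 1 to week 2, 5 of the 9 fell (Cd80, Pvr, Cd47, Cd200, Lgals9) and 0 rose by limma, also 0 at an unadjusted p under 0.05. Over all genes 55.6% were called in that step, 28.2% higher and 27.4% lower. The median was -2.52 for the 9 and 0.03 for all. The rise and the fall share the week 1 libraries and are not independent.

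**Figure D2:**
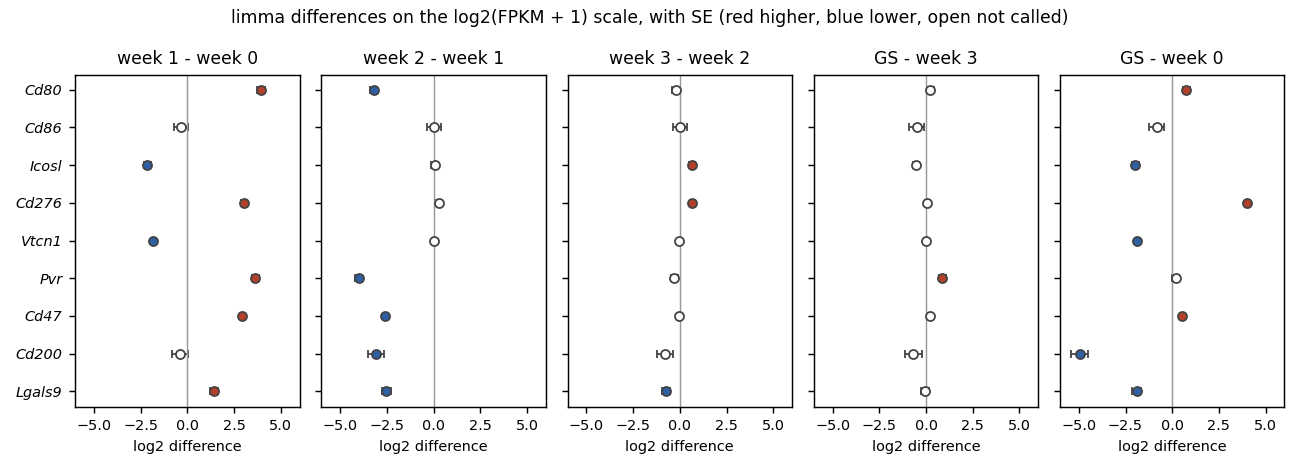
Differences of the 9 ligand genes in the 5 comparisons (panels), as limma estimates on the log2(FPKM + 1) scale (horizontal axis) with bars for the standard error. Filled points are called, red for higher and blue for lower. Most called points lie in the first 2 panels and in GS cells against week 0, and 3 and 1 of the 9 are called in week 3 against week 2 and in GS cells against week 3.

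Cd80 (ENSMUSG00000075122.5, chromosome 16, 38455561 to 38496335, plus strand, GRCm38) is normally a gene of activated antigen-presenting cells. The 2 libraries of week 0 read 0.258 and 0.106 FPKM, those of week 1 read 18.4 and 15.8, of week 2 1.08 and 0.822, of week 3 0.358 and 1.11, and of GS cells 1.01 and 0.987. Both week 1 libraries stood above all others, and the week 0 libraries were the lowest. The week 1 mean was 93.9 times that of week 0 (limma log2 difference 3.93, SE 0.20, adjusted p = 3.23e-07). By week 2 it had fallen 18.0 times (limma -3.21, SE 0.20, adjusted p = 7.81e-06). GS cells remained above week 0 (limma 0.76, SE 0.20, adjusted p = 0.00805), a call that was lost without replicate 2 of week 0 (adjusted p = 0.0559). The week 0 values rest on few reads. On the longest coding transcript they correspond to about 7.9 and 4.0 reads, against 910 and 747 at week 1.

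Pvr (ENSMUSG00000040511.14, chromosome 7, 19903578 to 19921160, minus strand) had the largest fall after week 1 by ratio of means among the 9 genes. Week 0 gave 3.63 and 4.01 FPKM, week 1 gave 55.0 and 62.3, week 2 gave 3.13 and 2.38, week 3 gave 1.60 and 2.56, and GS cells gave 4.03 and 5.07. Only the week 1 libraries were above 6 FPKM. Week 1 exceeded week 0 15.3 times (limma log2 difference 3.63, SE 0.19, adjusted p = 3.57e-07), and week 2 lay 21.3 times below week 1 (limma -4.00, SE 0.19, adjusted p = 2.3e-06). In GS cells Pvr was again above week 3 (limma 0.86, SE 0.19, adjusted p = 0.0161), the only one of the 9 called in that comparison. GS cells and week 0 differed by 0.20 (limma, SE 0.19, adjusted p = 0.362), which was not called on the deposited scale. It was called after quantile normalization (1.23, adjusted p = 0.000252), at a common sum (0.58, adjusted p = 0.0266) and at a common upper quartile (0.53, adjusted p = 0.0341). Gm16184 and Gm16251 overlap Pvr on the opposite strand. They have no row in the matrix, and the sources do not say if reads were assigned by strand.

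Cd47 (ENSMUSG00000055447.19, chromosome 16, 49800533 to 49915010, plus strand) was expressed in every library. The library pairs stood at 11.4 and 9.14 FPKM (week 0), 81.6 and 88.0 (week 1), 13.9 and 12.4 (week 2), 12.6 and 13.3 (week 3), and 14.1 and 16.2 (GS cells). The week 1 libraries were again far above the rest, which lay between 9.14 and 16.2. The week 1 mean was 8.24 times that of week 0 (limma log2 difference 2.93, SE 0.13, adjusted p = 1.16e-07) and 6.45 times that of week 2 (limma -2.60 from week 1 to week 2, SE 0.13, adjusted p = 2.71e-06). No neighbours among week 2, week 3 and GS cells were called different. GS cells stood above week 0 by 0.52 (limma, SE 0.13, adjusted p = 0.00514), or by 0.73 relative to the median of all genes.

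Lgals9 (ENSMUSG00000001123.15, chromosome 11, 78962974 to 78984946, minus strand) had the smallest rise of these 4 genes, from 6.81 and 8.76 FPKM at week 0 to 22.4 and 22.1 at week 1. Later pairs read 2.54 and 3.61 (week 2), 1.10 and 1.77 (week 3), and 1.73 and 0.971 (GS cells). Unlike the other 3 genes, its cultured libraries from week 2 on were all below both week 0 libraries. Week 1 was 2.86 times week 0 (limma log2 difference 1.41, SE 0.22, adjusted p = 0.000429), and week 2 was 7.24 times lower than week 1 (limma -2.52, SE 0.22, adjusted p = 4.47e-05). GS cells were 5.76 times lower than week 0 (limma -1.91, SE 0.22, adjusted p = 6.2e-05). The step from week 2 to week 3 was called at limma -0.75 (SE 0.22, adjusted p = 0.0495), and the call was lost in 14 of 20 alternative settings (adjusted p = 0.0394 to 0.241).

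Fibroblast and matrix markers moved with these 4 genes. All 14 genes of that list rose from week 0 to week 1, beside 36.3% of all genes. All 14 fell from week 1 to week 2, beside 27.4%. Their summed FPKM was 723 to 877 (week 0), 7570 to 7606 (week 1), 806 to 841 (week 2), 385 to 741 (week 3) and 697 to 720 (GS cells), with none of the 14 at 0 in any group. Smooth muscle and peritubular myoid markers (6 genes) summed to 817 to 963 FPKM at week 0, 903 to 948 at week 1 and 53.4 to 64.9 at week 2, with none at 0. The sum hid opposite courses. From week 0 to week 1, 4 of the 6 fell and 1 rose, beside 44% and 36.3% of all genes. Tagln went from a mean of 167 to 662 FPKM, and Myh11 from 94.6 to 1.70. Within groups the order of the 2 libraries varied. At week 3 the library with the lower fibroblast sum (385 against 741 FPKM) was also the lower one for all 4 genes. At week 2 the library with the lower sum (806 against 841) was the higher one for Cd80, Pvr and Cd47. At week 0 (723 against 877) this held for Cd80 and Cd47, and at week 1 (7570 against 7606) and in GS cells (697 against 720) for Pvr and Cd47. Sums as close as those of weeks 1 and 2 and GS cells cannot order 2 libraries. The part of these cells in the results was not tested. Undifferentiated spermatogonia markers went the other way at the second step. They summed to 764 to 777 FPKM at week 1 and 1326 to 1359 at week 2. Of the 14, 13 rose at that step, beside 28.2% of all genes.

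**Figure D3:**
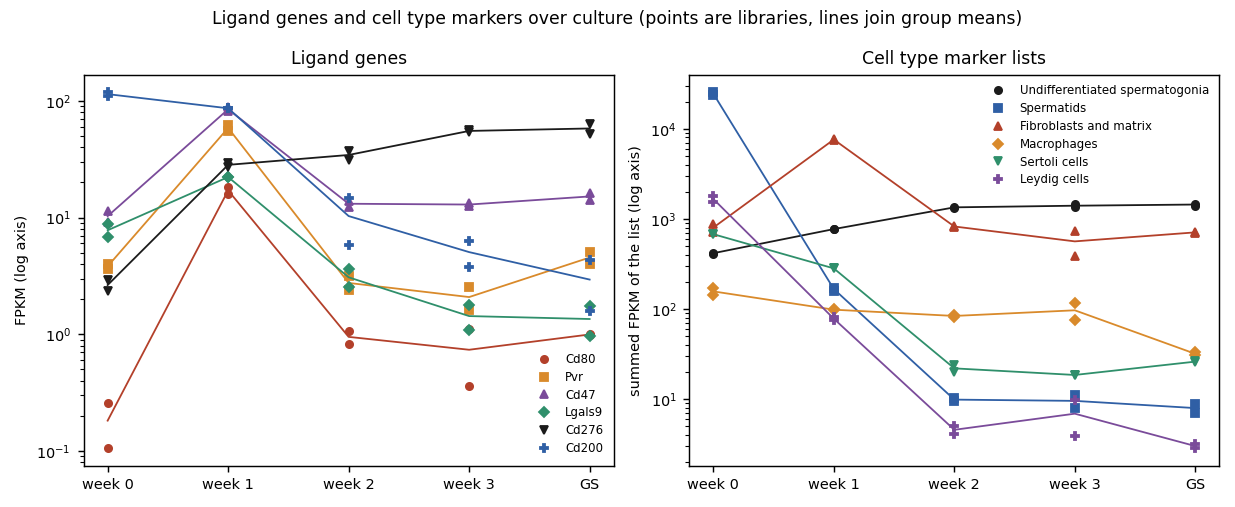
Left, FPKM of 6 ligand genes, and right, summed FPKM of 6 lists of cell type markers, both on log axes over the 5 groups. Points are libraries and lines join group means. Cd80, Pvr, Cd47 and Lgals9 share their week 1 maximum with the fibroblast and matrix list, whose sum was 7570 to 7606 FPKM there, while the sum of the undifferentiated spermatogonia list kept a level of 1326 or more from week 2 on.

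Promoter sequences are shown for 3 of the 4 genes that peaked at week 1, as genes that had their highest level in the same week, and for Cd276 as the contrasting gene that stayed high. They come from RefSeq (GRCm38.p6), which held an entry for 7 of the 9 genes, all but Cd86 and Pvr. Each is 300 bases, 250 before and 50 after the annotated start, written 5′ to 3′ on the strand of the gene. Positions count from 0 at the start site. Capitals mark matches, on either strand, to 8 searched motifs: AP-1, the interferon-stimulated response element (ISRE), the GC box, the TATA box, the STAT motif GAS, the E-box, the core of the cAMP response element (CRE) and kappaB.
Cd80, chr16:38458683-38458982, plus strand: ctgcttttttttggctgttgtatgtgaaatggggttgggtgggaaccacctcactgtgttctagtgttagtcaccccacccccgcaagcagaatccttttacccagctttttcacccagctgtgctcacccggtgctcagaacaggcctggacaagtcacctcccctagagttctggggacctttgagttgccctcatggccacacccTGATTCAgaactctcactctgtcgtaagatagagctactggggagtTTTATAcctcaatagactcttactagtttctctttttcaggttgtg
Cd47, chr16:49855404-49855703, plus strand: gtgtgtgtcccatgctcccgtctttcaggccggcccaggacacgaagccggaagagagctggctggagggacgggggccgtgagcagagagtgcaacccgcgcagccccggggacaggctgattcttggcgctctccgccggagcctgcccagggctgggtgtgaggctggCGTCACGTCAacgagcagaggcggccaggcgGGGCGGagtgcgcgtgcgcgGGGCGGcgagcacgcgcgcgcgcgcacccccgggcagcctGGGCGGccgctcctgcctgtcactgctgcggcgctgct
Lgals9, chr11:78984875-78985174, minus strand: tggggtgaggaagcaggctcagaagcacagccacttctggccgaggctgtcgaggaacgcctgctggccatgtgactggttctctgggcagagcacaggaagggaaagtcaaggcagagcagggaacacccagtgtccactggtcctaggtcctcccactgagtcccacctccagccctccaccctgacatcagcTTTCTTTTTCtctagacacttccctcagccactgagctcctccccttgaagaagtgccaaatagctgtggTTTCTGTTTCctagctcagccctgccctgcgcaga
Cd276, chr9:58554984-58555283, minus strand: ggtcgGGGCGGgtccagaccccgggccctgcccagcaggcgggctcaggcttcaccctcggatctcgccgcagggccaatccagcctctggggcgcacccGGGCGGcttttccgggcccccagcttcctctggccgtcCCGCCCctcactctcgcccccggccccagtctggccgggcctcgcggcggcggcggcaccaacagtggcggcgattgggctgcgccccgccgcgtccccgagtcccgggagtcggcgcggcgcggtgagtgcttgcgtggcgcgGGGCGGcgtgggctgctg

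The 3 promoters of genes with a week 1 peak held no motif in common. The Cd80 promoter had an AP-1 match at -42 to -36, where it reads TGATTCA, and a TATA box (TATAAA) match on the opposite strand at 4 to 9, past the start. Among all 32851 mouse promoters 7.81% held an AP-1 match, with TGANTCA as the letters searched, and 13.6% a TATA box match. Lgals9 had 2 ISRE matches on the opposite strand, TTTCTTTTTC at -55 to -46 and TTTCTGTTTC at 15 to 24, and 3.44% of all promoters held at least 1. Cd47 had 3 GC boxes (GGGCGG), at -48 to -43, -28 to -23 and 12 to 17, and 2 CRE cores (TGACG) side by side from -79 to -70. GC boxes stood in 35.7% of all promoters and CRE cores in 20.8%. Cd276 had 4 GC boxes. Base composition also differed: GC made up 74.0% of the Cd47 promoter and 78.3% of that of Cd276, with 35 and 39 CpG dinucleotides, above the upper quartiles of all promoters (61.7% and 20). Cd80 had 49.7% GC and 3 CpG, and Lgals9 58.0% and 4. The Icosl promoter held a kappaB match (8.46% of all promoters) and a GC box, the Vtcn1 promoter an AP-1 match, TGAGTCA, at 1 to 7, and the Cd200 promoter a GC box and a CRE core. The E-box, searched as CACGTG, and GAS, searched as TTCNNNGAA, had no match in the 7 promoters. They stood in 7.15% and 8.3% of all promoters. A match describes letters in this window and is not a measured binding site. The last bases of the window occur in a GENCODE M21 transcript for Cd80, Cd47 and Lgals9, and were not found in one for Cd276. Whether the starts used are those of GENCODE M21 transcripts was not checked.

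Cd276 (ENSMUSG00000035914.11, chromosome 9, 58524298 to 58555437, minus strand) rose on entry into culture, and its mean in each later group was above that of week 1. Its 2 libraries read 2.37 and 2.91 FPKM for week 0, 29.2 and 27.4 for week 1, 31.3 and 37.5 for week 2, 56.6 and 54.0 for week 3, and 63.8 and 52.3 for GS cells. Every cultured library was above both week 0 libraries, and week 3 and GS cells were above weeks 1 and 2. The week 1 mean was 10.7 times that of week 0 (limma log2 difference 3.01, SE 0.13, adjusted p = 1.29e-07). Weeks 1 and 2 differed by 0.27 (limma, SE 0.13, adjusted p = 0.126), which was not called on the deposited scale but was at a common FPKM sum (0.57, adjusted p = 0.00463). From week 2 to week 3 Cd276 rose 1.61 times (limma 0.67, SE 0.13, adjusted p = 0.0105), a call lost without replicate 1 of week 2 (adjusted p = 0.074) or replicate 1 of week 3 (adjusted p = 0.0604). GS cells and week 3 differed by 0.06 (limma, SE 0.13, adjusted p = 0.809). Against week 0 the rise in GS cells was 4.02 (limma, SE 0.13, adjusted p = 2.3e-08). Cd274, which encodes PD-L1, the ligand the series is about, went from 1.86 FPKM at week 0 to 26.6 in GS cells, next to 2.64 and 58.1 for Cd276. Gm10657 overlaps Cd276 on the opposite strand and has no row in the matrix.

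Cd276 and the fibroblast list parted after week 1. From week 1 to week 2 its mean went from 28.3 to 34.4 FPKM while all 14 fibroblast and matrix markers fell, beside 27.4% of all genes. Undifferentiated spermatogonia markers were higher in GS cells than at week 0 in 13 of 14 cases (median log2 difference 2.65), beside 34.7% of all genes. Cd276 was higher there too. The part of cell composition in this was not tested.

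Cd200 (ENSMUSG00000022661.14, chromosome 16, 45382135 to 45409053, minus strand) had the highest level of the 9 genes in any group. Week 0 libraries held 110.2 and 118 FPKM, week 1 libraries 86.1 and 86.8, week 2 libraries 5.79 and 14.8, week 3 libraries 3.77 and 6.35, and GS libraries 1.60 and 4.29. The first 2 groups lay well above the other 3, whose libraries spread widely. Weeks 0 and 1 were not called different (limma log2 difference -0.40, SE 0.44, adjusted p = 0.422). With only these 4 libraries in the fit they were (adjusted p = 0.0084). Cd200 fell 8.39 times from week 1 to week 2 (limma -3.08, SE 0.44, adjusted p = 0.000532) and was 38.9 times lower in GS cells than at week 0 (limma -4.96, SE 0.44, adjusted p = 9.66e-06). Between week 2, week 3 and GS cells no neighbouring pair was called. Sertoli cell markers (9 genes) summed to 671 to 682 FPKM at week 0, 282 to 283 at week 1 and 20.2 to 23.7 at week 2, with none at 0. Clu was the largest part of that sum, with means of 371, 215 and 11.6 FPKM. Sox9 rose at week 1, from 2.77 to 28.3 FPKM (limma 2.96, adjusted p = 1.25e-07), and was at 1.61 at week 2. The smooth muscle list showed the fall at week 2 given above. The part of Sertoli and smooth muscle cells in the result was not tested.

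Icosl (ENSMUSG00000000732.9, chromosome 10, 78069302 to 78083913, plus strand) encodes the ligand of the T cell receptor ICOS. Its pairs of libraries were 5.73 and 8.12 FPKM (week 0), 0.603 and 0.964 (week 1), 0.864 and 0.839 (week 2), 2.1 and 1.71 (week 3), and 0.859 and 1.13 (GS cells). Week 0 was highest, and week 3 stood above the other cultured groups. The mean fell 8.84 times from week 0 to week 1 (limma log2 difference -2.14, SE 0.18, adjusted p = 6.25e-06) and was 6.97 times lower in GS cells than at week 0 (limma -1.98, SE 0.18, adjusted p = 1.05e-05). From week 2 to week 3 it rose 2.23 times (limma 0.65, SE 0.18, adjusted p = 0.0354), and this call was lost in 5 of 20 alternatives (adjusted p = 0.0265 to 0.164). GS cells and week 3 differed by -0.54 (limma, SE 0.18, adjusted p = 0.0622).

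Vtcn1 (ENSMUSG00000051076.8, chromosome 3, 100825459 to 100896922, plus strand) was at 2.67 and 2.58 FPKM at week 0. It was listed at 0 in 7 of the 8 cultured libraries and at 0.0307, about 1.0 read, in replicate 2 of week 2. The gene passed the filter on low values only through week 0. Its week 0 values correspond to about 66.9 and 79.0 reads. The limma difference of -1.86 from week 0 to week 1 (SE 0.07, adjusted p = 5.39e-08) depends on the added 1, and no ratio is given. Vtcn1 shared this on and off course with many genes: 2903 of 15670 others correlated with it at r = 0.95 or more over the 10 libraries. At the same step all 8 spermatid markers and 6 of 7 Leydig cell markers fell, beside 44% of all genes. The exception, Star, a cholesterol transport gene of steroid-making cells, had means of 40.8 and 58.9 FPKM (limma 0.52, adjusted p = 0.2). Acrv1, Insl3, Cyp17a1, Hsd3b1, Lhcgr and Hsd17b3 passed the filter only with their high week 0 libraries counted, so their calls carry no weight. The part of spermatids and Leydig cells in the result was not tested.

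Cd86 (ENSMUSG00000022901.13, chromosome 16, 36603869 to 36666081, minus strand), the other CD28 ligand, was low throughout. The pairs were 0.553 and 2.00 FPKM (week 0), 1.34 and 0.215 (week 1), 0.453 and 1.04 (week 2), 0.95 and 0.512 (week 3), and 0.232 and 0.182 (GS cells). Replicates differed as much as groups did, and only the 2 GS libraries lay close together. These values correspond to about 8.0 to 59.1 reads per library. No comparison called Cd86 (limma F test adjusted p = 0.363), and GS cells against week 0 gave -0.84 (limma, SE 0.38, adjusted p = 0.0691). Without replicate 1 of week 0 that difference was called (-1.31, adjusted p = 0.0168), as it was without either week 1 library (adjusted p = 0.0404 and 0.0407). Beside the 93.9-fold rise of Cd80 at week 1, Cd86 had means of 1.28 FPKM at week 0 and 0.777 at week 1.

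Macrophages and dendritic cells are usual sources of CD80 and CD86. Of 13 macrophage markers 10 were tested, and of these 6 fell and 2 rose from week 0 to week 1. Over all genes 80.3% were called at that step, 44% lower and 36.3% higher. The sum of the 13 went from 142 to 171 FPKM to 96.4 to 100.3, with none at 0 in either group. Csf1r, the receptor for the macrophage growth factor, had means of 13.3 FPKM (week 0), 0.951 (week 1) and 0.034 (GS cells). The 2 that rose were Cd14 and Cd68. Cd14 went from a mean of 4.69 to 15.7 FPKM (limma 1.55, adjusted p = 4.73e-06) and was at 2.90 at week 2. Cd68 went from 8.69 to 13.7 (limma 0.60, adjusted p = 0.0176). Csf1r, C1qb and Cx3cr1 passed the filter only with their high week 0 libraries counted, so their calls carry no weight. Of the 10 dendritic and B cell markers, the sum was 25.7 to 26.6 FPKM at week 0 and 9.28 to 10.03 at week 1, with Xcr1 and Ms4a1 listed at 0 at week 1. Most of that drop was the B cell factor gene Pax5, with means of 13.5 and 0.0474 FPKM. Of the 6 tested, 3 fell and 2 rose, beside the same shares of all genes. Those that rose were the B cell receptor genes Cd79a and Cd79b. They went from 0.0699 to 0.972 and from 0.137 to 1.83 FPKM (limma 0.88 and 1.32, adjusted p = 0.002 and 3.06e-06). Pax5 passed the filter only through week 0 and Cd79b only through week 1, where they were high, so the calls of Pax5 and Cd79b carry no weight. The part of these cells in the levels of Cd80 and Cd86 was not tested.

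Each gene's order of levels, with limma calls between neighbours, set the patterns apart. For Cd80 it was week 1, then GS cells, week 2 and week 3, with no call between neighbours, then week 0, which was below week 3 (adjusted p = 0.0416 by limma). For Pvr and Cd47, week 1 stood above GS cells and no later neighbours were called. In Pvr the other 4 groups ran GS cells, week 0, week 2, week 3, with week 3 below week 0 when those ends were compared directly (limma -0.66, adjusted p = 0.0115). In Cd47 they ran GS cells, week 2, week 3, week 0, where the last pair gave adjusted p = 0.0521 by limma. The order for Lgals9 was week 1, week 0, week 2, week 3 and GS cells, each above the next except the last pair. For Cd276 it was GS cells and week 3, not called apart, then week 2 and week 1, not called apart, then week 0. Icosl ran week 0, then week 3, GS cells, week 2 and week 1, where the first pair was called (limma adjusted p = 8.34e-05) and no later pair was. These orders use 5 further comparisons. In them limma called 7 of the 9 genes between weeks 2 and 0 (79.5% of all genes) and 7 between weeks 3 and 0 (80.6%). Both counts include Vtcn1, which passed the filter only through week 0, so its calls carry no weight. Limma also called 7 between weeks 3 and 1 (61.9%), 6 between GS cells and week 1 (58.6%) and 2 between GS cells and week 2 (18%).

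The last comparisons concern week 3 and the established line. From week 2 to week 3, 3 of the 9 genes were called, Icosl and Cd276 higher and Lgals9 lower, against 21.3% of all genes (10.6% higher, 10.7% lower). None of these 3 calls held in every alternative, and leaving out replicate 1 of week 2 or replicate 1 of week 3 left 0 called (limma, 20 settings tried). Leaving out replicate 2 of week 2 or of week 3 left 1. In GS cells against week 3, 1 of the 9 was called, Pvr, higher, and 0 were lower by limma (1, Icosl, at an unadjusted p under 0.05). The background was 22.5% (11.7% higher, 10.8% lower). The Pvr call was lost without replicate 1 of week 3 (adjusted p = 0.0818) or replicate 2 of GS cells (adjusted p = 0.0883). The median over the 9 genes was -0.02 in week 3 against week 2 and 0.0 in GS cells against week 3. In GS cells against week 0, 3 rose (Cd80, Cd276, Cd47) and 4 fell (Icosl, Vtcn1, Cd200, Lgals9), a total of 7 of 9 beside 80.6% of all genes (34.7% higher, 45.9% lower). Without Vtcn1, which passed the filter only through week 0, 3 rose and 3 fell. The median was -0.84 for the 9 genes and -0.21 for all genes. In GS cells the gene with the highest level was Cd276, at 58.1 FPKM, followed by Cd47 at 15.2, Pvr at 4.55, Cd200 at 2.94 and Lgals9 at 1.35. Icosl and Cd80 stood at 0.995 and 0.996, Cd86 at 0.207, and Vtcn1 was listed at 0. At week 0 the highest was Cd200 at 114 FPKM, followed by Cd47 at 10.3, and Cd276 was at 2.64.

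Position did not go with pattern. On chromosome 16 lie 4 of the 9 genes, in the order Cd86, Cd80, Cd200, Cd47, with 1.79, 6.89 and 4.39 Mb between neighbours. Cd80 and Cd47 had the week 1 peak, Cd200 between them was high at weeks 0 and 1, and Cd86 was not called. All 9 are protein coding in GENCODE M21, and the coordinates span the whole gene, exons and introns.

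Likeness of pattern was measured as Pearson's r of log2(FPKM + 1) over the 10 libraries, which share group and depth, and is given as a description. Among the 9 genes, Cd80 and Cd47 had r = 0.991, Pvr and Cd47 0.968, and Cd80 and Pvr 0.955. Lgals9 was less like Cd80 (0.724) and Cd47 (0.73) than like Pvr (0.834), and its closest member was Cd200 (0.887), which is outside the week 1 group. Cd276 and Vtcn1 ran opposite (-0.964). Among the other 15670 genes, those most like Cd80 were Loxl2 (0.998), Has2 (0.998) and Pdpn (0.997). Has2, a hyaluronan synthase gene, had a mean of 0.012 FPKM at week 0, 62.9 at week 1 and 1.26 at week 2. The nearest to Cd47 were Gpr176, Mapk13 and Bdnf (0.995, 0.994 and 0.994), and the nearest to Pvr were Masp1, Tmem59 and Pi15 (0.996, 0.995 and 0.994). For Lgals9 they were Endod1, Igfbp7 and Mgat2 (0.991, 0.990 and 0.989). Cd276 was most like Ppp1r18, Tubb5 and Srfbp1 (0.997, 0.996 and 0.996), and Tubb5, a beta tubulin gene, had a mean of 55.6 FPKM at week 0 and 388 in GS cells. Cd200 was most like Pmp22, Cndp2 and Uggt2 (0.986, 0.985 and 0.985). The genes nearest to Icosl were Mpig6b, Dpf3 and Ly6g6c (0.991, 0.989 and 0.987), each with a higher mean at week 3 than at weeks 1 and 2. Vtcn1 was matched by Cnbd1, Tex29 and Tcp10a (each 1.00), which were near or at 0 in culture. The best matches of Cd86 were Cers1, Anks1b and Galnt16 (0.889, 0.858 and 0.796). Such likeness was common: 372 genes reached r = 0.95 with Cd80, 346 with Pvr, 378 with Cd47, 241 with Lgals9, 649 with Cd276, 516 with Icosl and 156 with Cd200, and 0 with Cd86.

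The receptors of these ligands were mostly low or absent. Of 11 receptor genes 3 passed the filter, Sirpa, Cd96 and Havcr2. Cd28, Ctla4, Icos and Tigit, the T cell receptors of CD80, CD86, ICOSL and PVR, had means of at most 0.264 FPKM in any group, and Cd226 was listed at 0 in every library. Sirpa, the partner of CD47 on phagocytes, had means of 7.87, 12.6, 12.7 and 8.07 FPKM over weeks 0 to 3 and of 14.9 in GS cells. It rose from week 0 to week 1 (limma log2 difference 0.63, adjusted p = 0.0198) and was higher in GS cells than at week 0 (0.85, adjusted p = 0.00441). Havcr2, a receptor of galectin-9, had its highest mean at week 1, 3.03 against 0.396 FPKM at week 0 (limma 1.52, adjusted p = 1.83e-05), the same week as Lgals9. Cd96, which binds PVR, went from 3.86 FPKM at week 0 to a listed 0 at week 1 (limma -2.28, adjusted p = 4.13e-08). Cd96 passed the filter only through week 0 and Havcr2 only through week 1, the groups where they were high, so these calls carry no weight. Among the T and natural killer cell markers Ncr1 and Nkg7 were listed at 0 in all libraries, and the sum of the 9 markers was 43.8 to 53.3 FPKM at week 0, 10.1 to 11.0 at week 1 and 7.25 to 10.9 in GS cells. The week 0 sum was mostly Cd3d, at 45.6 FPKM and listed at 0 at week 1, while Cd3e rose from 0.351 to 8.07 FPKM (limma 2.75, adjusted p = 6.56e-06).

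**Figure D4:**
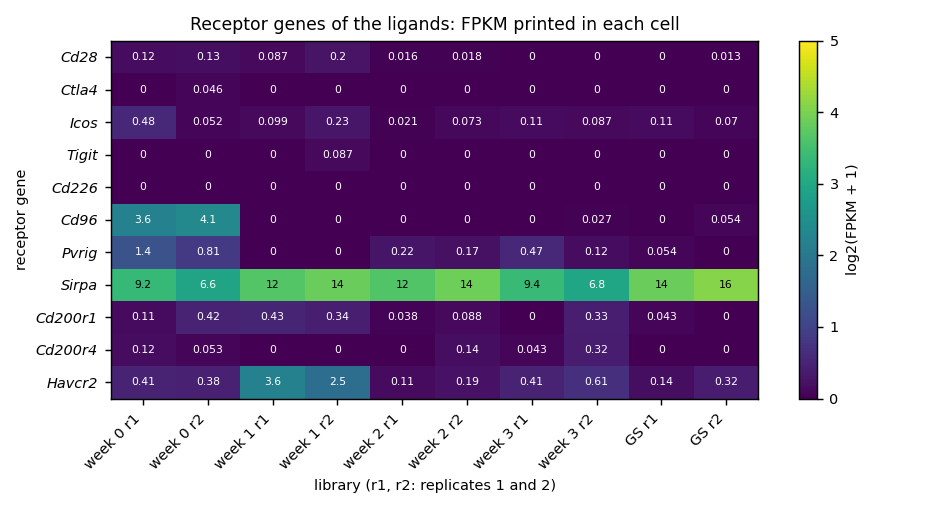
FPKM of 11 receptor genes (rows) in the 10 libraries (columns), printed in each cell and coloured by log2(FPKM + 1). Sirpa is the one receptor with several FPKM in every library, Cd96 is above 1 at week 0 and Havcr2 is highest at week 1.

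Other genes of the same pathways were counted from lists chosen with earlier results of these data known. Of 15 tested relatives and other checkpoint ligands, 9 rose and 2 fell from week 0 to week 1 (median 2.08), and 2 rose and 8 fell from week 1 to week 2 (median -0.63), beside 80.3% of all genes called at the first step (36.3% higher) and 55.6% at the second (27.4% lower). The galectin genes Lgals3 and Lgals1 led the rise, from 2.50 to 213 and from 103 to 2745 FPKM (limma 5.96 and 4.72, adjusted p = 1.14e-07 and 7.69e-09), more than Lgals9. Nectin1, a relative of Pvr, went from 1.59 to 21.9 FPKM (limma 3.12, adjusted p = 1.69e-06) and was still at 20.9 in GS cells, whereas Pvr had come back to 4.55. Nectin3, another relative, was lower in GS cells than at week 0 (177 to 26.2 FPKM, limma -2.71, adjusted p = 6.87e-06).

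Among the 12 partners of CD47 and other engulfment signals, 8 rose and 1 fell from week 0 to week 1 (median 0.73), and 10 fell from week 1 to week 2 (median -0.91). Over all genes 36.3% were higher and 44% lower at the first step, 80.3% in all, and 27.4% were lower at the second. Thbs1, thrombospondin, a secreted ligand of CD47, went from 1.36 to 502 FPKM (limma 7.74, adjusted p = 5.39e-09) and was at 66.1 in GS cells (limma 4.84 over week 0, adjusted p = 8.65e-08). Qpctl, the enzyme that modifies CD47 so that it can bind SIRPA, had means of 9.21 FPKM at week 0 and 7.51 at week 1, and was lower in GS cells, at 2.1 (limma -1.72 against week 0, adjusted p = 2.2e-06). Cd24a, another surface signal against engulfment, went from 4.63 to 36.6 FPKM at week 1 (limma 2.74, adjusted p = 2.14e-07), and Pros1, protein S, a bridge between dying cells and phagocytes, from 14.7 to 69.0 (limma 2.16, adjusted p = 3.27e-05). Axl, a receptor in the engulfment of dying cells, was lower in GS cells than at week 0 (limma -1.73, adjusted p = 0.000131).

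Of 10 tested genes of CD28-family signalling and NF-kB, a factor known to induce B7 genes, 7 rose and 1 fell from week 0 to week 1 (median 1.58). Together this was near the 80.3% of all genes called (36.3% higher, 44% lower). Nfkb1 went from 11.0 to 84.4 FPKM (limma 2.84, adjusted p = 2.4e-07) and its mean was 15.9 at week 2. Nfkbia went from 36.1 to 155 FPKM at week 1 (limma 2.07, adjusted p = 9.27e-07). Nfkb2 went from 4.60 to 25.4 FPKM (limma 2.25, adjusted p = 9.49e-07) and was also at 25.4 in GS cells (limma 2.24 over week 0, adjusted p = 9.77e-07). Relb was higher in GS cells than at week 0 (39.4 against 8.81 FPKM, limma 2.04, adjusted p = 2.79e-07), as was Irf1 (102 against 21.7, limma 2.19, adjusted p = 4.19e-07). Nfkb1 and Rela were lower in GS cells than at week 0 (limma -0.51 and -0.22, adjusted p = 0.00897 and 0.0386). Over the list 7 were higher and 2 lower in GS cells, beside 80.6% of all genes called (34.7% higher, 45.9% lower). All 9 tested proteases that can release ligands from the surface rose from week 0 to week 1 (median 2.41), and 6 of them fell from week 1 to week 2 (median -1.60), against 36.3% of all genes higher at the first step and 27.4% lower at the second. Mmp13 went from 0.203 to 406 FPKM (limma 8.40, adjusted p = 9.32e-09), Adam9 from 7.72 to 54.5 (limma 2.67, adjusted p = 1.79e-07), and Mmp3 from a listed 0 to 1276. Mmp9 had means of 2.21 FPKM at week 0 and 13.0 in GS cells (limma 2.19, adjusted p = 0.000218). Many genes of these lists shared the week 1 rise with the fibroblast and matrix markers, whose part was not tested.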

How the data were processed

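Poly(A) RNA of 10 libraries was sequenced after strand-marking TruSeq preparation, per the labels' protocols. The authors deposited FPKM values for 21969 genes, a column for each library. Cufflinks 2.2.1, Cuffdiff, HISAT2 2.1.0, Bowtie2 2.3.4.1, cutadapt 1.16, bcl2fastq 2.17.1.14 and the build mm10 appear in the submitters' processing notes. Their annotation release and strand setting: not given in the sources used here. Identifiers were matched to GENCODE M21 (21951 found), 27 symbols turned into dates were restored, and 19 symbols stood on more than 1 row.

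Genes reaching FPKM 1 in 2 or more libraries (15671, all 9 ligand genes among them) were fitted as log2(FPKM + 1) with limma 3.58.1 in R 4.3.3. The fit held 5 groups of 2 libraries, 5 residual degrees of freedom and a variance trend, and was tested on simulated data. P-values were two-sided and adjusted by Benjamini-Hochberg within each comparison. Depth was read from FPKM steps in 2268 genes with one transcript of at least 1500 nucleotides, where 96.3% to 99.3% of low values were whole within 0.15 read. Reads per gene are approximate and assume a fragment of 200 nucleotides. FPKM was not turned into counts, so no count model was run.

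All 9 genes are described. For each, the 3 genes with the highest r are named, and of each list the called genes with the largest differences in week 1 or GS cells against week 0. Receptor and marker levels are given beside the results. Star, Pax5, Cd79a, Cd79b, Cd3d, Cd3e, Zbtb46, Rela, Csf1r, Irf8, Flt3, Cd2, Itgax, Xcr1, C1qa, Lyz2 and Cd68 were named after their values were seen. So were Cd14, C1qb, Cx3cr1, Tagln, Myh11, Sox9, Clu, Acrv1, Insl3, Cyp17a1, Hsd3b1, Lhcgr and Hsd17b3. The members and lists were chosen with earlier results of these data known.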

Additional observations from a re-analysis of the deposited data

How the results depend on the processing

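Of 872 values of single ligand genes under alternative settings (another pseudocount, filter or scaling, fits without the trend or with fewer libraries, each library left out), 839 kept their direction and side of the threshold where called, 24 lost a call, 9 gained one and 0 turned direction while called. Leaving out each library in turn gave 6 to 7 ligand genes called in week 1 against week 0, 5 in week 2 against week 1 in all cases, and 5 to 8 in GS cells against week 0. The number of ligand genes called in week 3 against week 2 was 3 as reported, 1 with no filter, and 0 to 3 when a library was left out. In GS cells against week 3 it was 1 as reported, 2 with a filter at FPKM 5, and 0 to 1 with a library left out. Over all genes, leaving out a library gave 1573 to 3520 calls for week 3 against week 2 (3339 as reported) and 1748 to 3702 for GS cells against week 3 (3526 as reported), with the low counts on leaving out a library of the groups compared. A group left with 1 library was assumed to vary like the others. Vtcn1 gave no value without a week 0 library, and neither Vtcn1 nor Cd86 gave one with the filter at FPKM 5. Fits of only the libraries compared gave no value for genes below the filter there. These were Vtcn1, Cd86, Cd80 or Icosl, depending on the comparison. Scaling moved the median of all genes in week 1 against week 0 from -0.14 to 0.38 (quantile), 0.08 (common sum) and 0.24 (upper quartile), in GS cells against week 0 from -0.21 to 0.45, 0.17 and 0.12, and in week 2 against week 1 from 0.03 to 0.17, 0.24 and 0.01. Replicate numbers did not pair the samples: deviations of same-numbered libraries correlated at -0.053 to 0.046 over 10 pairs of groups. With the replicate block, 7, 5, 2, 1 and 7 ligand genes were called in the 5 comparisons, in the order of the report, and Lgals9 lost its call in week 3 against week 2 (adjusted p = 0.0612 by limma).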

Other observations

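Single genes of the immune cell lists rose in culture while several other markers of the same lists were near 0. Flt3, a receptor of blood progenitors and dendritic cells, read 0.755 and 0.957 FPKM (week 0), 4.37 and 4.59 (week 3), and 18.6 and 18.4 (GS cells) (limma log2 difference 3.40 between GS cells and week 0, adjusted p = 6.44e-08). Cd2, a T cell adhesion gene, was at 1.22 and 1.21 FPKM at week 0 and 9.45 and 6.44 in GS cells (limma 1.99, adjusted p = 2.68e-05). In GS cells Itgax had a mean of 0.006 FPKM, Xcr1 was listed at 0, and Cd3g and Cd4 were listed at 0. Others of these lists were not near 0 there: Zbtb46 had a mean of 10.1 FPKM, Cd79a rose to 2.57 (limma 1.74 over week 0, adjusted p = 2.82e-05), and Cd3e was at 0.956. Irf8, a factor known from myeloid cells and interferon responses, went from 5.09 and 7.27 FPKM at week 0 to 0.928 and 1.40 at week 1 and to 24.6 and 29.9 in GS cells (limma 1.99 between GS cells and week 0, adjusted p = 2.31e-05).

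Macrophage markers parted in the same way. Lyz2, lysozyme, was at 61.0 and 94.2 FPKM at week 3 and at 3.36 and 1.67 in GS cells (limma -4.49, adjusted p = 7.1e-05). Cd68, a lysosomal protein gene, was higher in GS cells than at week 3 (26.4 and 25.5 against 10.5 and 15.7 FPKM, limma 0.96, adjusted p = 0.0102). Csf1r and C1qa had means of 0.034 and 0.113 FPKM in GS cells.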
